A study of Homo sapiens with 5 samples.

Results

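This account follows 10 genes that stand between growth factor ligands and phosphoinositide 3-kinase (PI3K) in SAS, a cell line grown from a human squamous carcinoma of the tongue. They are 5 receptor tyrosine kinase genes (MET, AXL, EPHA2, IGF1R and INSR) and 5 genes for adaptor or docking proteins (IRS1, IRS2, GAB1, GAB2 and SHC1). The genes were taken by symbol from both deposited tables, joined on the gene identifier. All 10 were found among 15187 genes shared by the tables, and all 10 were among the 13123 genes tested after a filter on low counts. The knockdown cells carried short hairpin RNA against CCT2 (shCCT2, 3 libraries), which encodes a subunit of the chaperonin CCT, and the control cells carried a control hairpin (shCtrl, 2 libraries). Table A holds shCCT2 1, shCCT2 2 and shCtrl 1, and table B holds shCCT2 3 and shCtrl 2. The labels give no treatment time or growth factor stimulation. How many hairpin sequences were used, and whether each library is a culture of its own, is not stated, so a p-value here speaks for the spread of these 5 libraries, part of which may be technical.

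Receptor tyrosine kinases phosphorylate their own tails and docking proteins when a ligand binds. PI3K is then recruited through its regulatory subunit, which binds phosphorylated tyrosines on proteins such as the IRS and GAB docking proteins, and its lipid product brings AKT to the membrane. The insulin and IGF1 receptors signal mainly through IRS1 and IRS2, MET leans on GAB1, and SHC1 links receptors to GRB2 and RAS as well. In squamous carcinomas MET, AXL and EPHA2 are known for their links to migration and drug resistance. What was measured here is mRNA, and the phosphorylation by which these proteins act was not.

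Library totals lay between 16913585 and 18156592 estimated counts. CCT2, the targeted gene, stood at 296.1, 272.4 and 260.2 CPM in shCCT2 1, 2 and 3, against 629.9 and 642.4 CPM in shCtrl 1 and 2, so the groups did not overlap. Its fitted log2 change of -1.22 ± 0.18 (SE) did not pass in edgeR (adjusted p = 0.542) and passed in DESeq2 (adjusted p = 3.90e-05). CPM is the read count normalised to library size, here after TMM scaling of the libraries. The tables stood apart from each other. Chi-square per degree of freedom was 19.4 to 41.4 between libraries of table A and 197 to 271 between libraries of different tables. It was 166 between shCtrl 2 and shCCT2 3, so the table B libraries also differed from each other by more than those of table A. CDH1, which encodes E-cadherin, had 25.9 CPM in shCCT2 3 and 11.9 CPM in shCtrl 2, while table A had 173.4 and 202.8 CPM in shCCT2 1 and 2 and 242.7 CPM in shCtrl 1. The summed level of 8 squamous epithelial markers was 2115 to 4056 CPM in the shCCT2 libraries and 1484 to 4851 CPM in the shCtrl libraries. Of the markers of other cells, 3 leukocyte genes summed to 45.6 to 114.8 CPM (shCCT2) and 68.8 to 113.9 CPM (shCtrl), mostly CD68. The 2 fibroblast genes found (of 6 listed) summed to 2.81 to 4.69 CPM (shCCT2) and 3.90 to 13.2 CPM (shCtrl), and 4 endothelial genes summed to 1.36 to 3.31 CPM (shCCT2) and 4.23 to 8.36 CPM (shCtrl). KDR, an endothelial receptor, was at 0 in shCCT2 2, shCCT2 3 and shCtrl 1. PTPRC, which encodes the leukocyte antigen CD45, had 6.21 CPM in shCCT2 2 and at most 0.606 CPM in each other library, and the part of any of these markers in the results was not tested. Marker levels are CPM of the library totals without TMM scaling. In bulk RNA, fewer cells of a type and less RNA per cell cannot be told apart.

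No member passed the test of the knockdown. In edgeR's quasi-likelihood test with the table as a term and Benjamini-Hochberg adjustment over all genes, 0 of the 10 passed at an adjusted p under 0.05, where 0% of the 13123 genes tested passed (0 higher and 0 lower). At an unadjusted p under 0.05, 1 member was lower (GAB2) and none higher, beside 4.57% of all genes lower and 2.83% higher. DESeq2's Wald test called none of the members either, and called 0.0838% of all genes lower (11 genes) and 0.0152% higher (2 genes). At an unadjusted p under 0.05 it had 2 members lower (INSR and GAB2) and none higher, beside 6.04% of all genes lower and 4.05% higher. The fitted log2 change, shCCT2 minus shCtrl, was below 0 for 7 of the 10, beside 51.5% of all genes. The median fitted change of the members was -0.12 and that of all genes was -0.02.

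**Figure D1:**
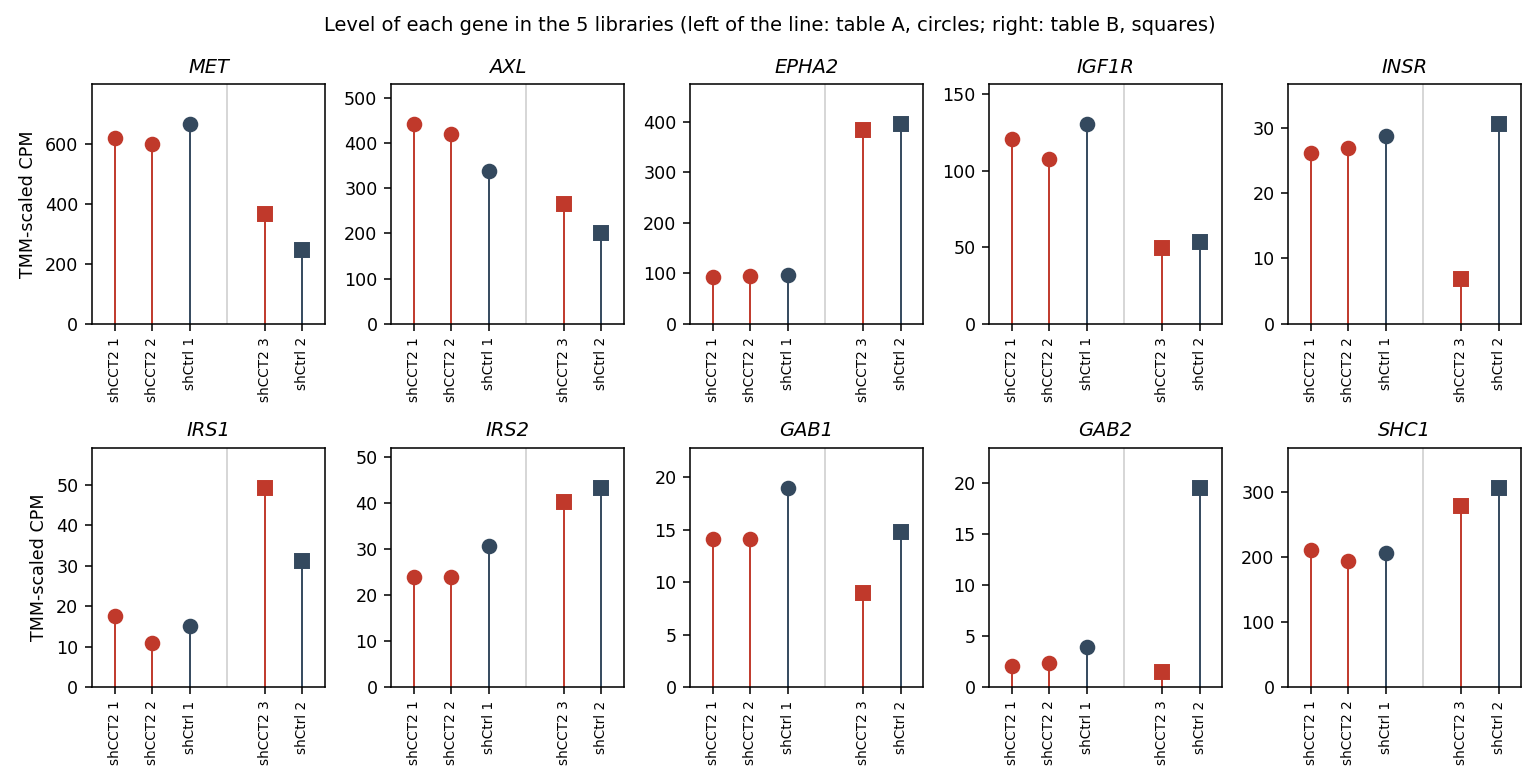
Level of each of the 10 genes (TMM-scaled CPM, each panel with its own axis from 0) in the 5 libraries; red marks shCCT2 and dark blue shCtrl, circles table A and squares table B. EPHA2 lay between 92.5 and 96.1 CPM in the 3 circles and at 383.3 and 394.6 CPM in the squares, while INSR was low in shCCT2 3 alone, at 6.88 CPM.

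Among the receptors, MET, the receptor for hepatocyte growth factor, had 617.8, 600.0 and 364.8 CPM in shCCT2 1, 2 and 3, against 664.6 and 243.9 CPM in shCtrl 1 and 2. Against its own control it had log2 changes, taken on CPM plus 0.5, of -0.11 and -0.15 in the table A pair and 0.58 in table B. An opposite sign in the tables of this kind was seen for 22.6% of all genes, and MET was the 1 member that showed it. The levels of the groups overlapped, and the largest gap was between the tables: both table B libraries were below all 3 of table A. Fitted over both tables, the change was 0.17 ± 0.23 (SE, 3 shCCT2 and 2 shCtrl libraries; edgeR adjusted p = 0.743). It was -0.13 without shCtrl 2, -0.13 without shCCT2 3 and 0.61 without shCtrl 1.

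AXL, the receptor for GAS6, was the one member higher than its own control in all 3 knockdown libraries, beside 20.2% of all genes. It had 442.2, 420.9 and 265.3 CPM in shCCT2 1, 2 and 3, against 338.2 and 200.4 CPM in shCtrl 1 and 2. The log2 changes were 0.39, 0.32 and 0.40, each with a 95% counting interval above 0, the lowest bound being 0.27. The levels of the groups overlapped, since shCCT2 3 lay below shCtrl 1. The fit gave 0.37 ± 0.18 (SE; edgeR adjusted p = 0.542), and it ran from 0.35 to 0.43 with each library left out in turn. Without shCtrl 2 or without shCCT2 3 the value rests on table A alone, and without shCtrl 1 on the table B pair alone. The values of this range are therefore not independent of each other.

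EPHA2, an ephrin-A receptor abundant in epithelia, was almost level between the hairpins within each table. It had 92.5, 93.7 and 383.3 CPM in shCCT2 1, 2 and 3, against 96.1 and 394.6 CPM in shCtrl 1 and 2. The log2 changes were -0.05, -0.04 and -0.04, and the counting interval of each included 0. The fit gave -0.04 ± 0.17 (SE; edgeR adjusted p = 0.924), and a p of this size does not show that the groups are alike. It was -0.012 without shCtrl 1. Both table B libraries were far above all 3 of table A.

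IGF1R, the receptor for the insulin-like growth factors, had 120.4, 107.4 and 49.4 CPM in shCCT2 1, 2 and 3, against 130.2 and 53.3 CPM in shCtrl 1 and 2. Each knockdown library was below its own control, with log2 changes of -0.11, -0.28 and -0.11. The counting interval of the last one included 0. Its fitted value was -0.16 ± 0.17 (SE; edgeR adjusted p = 0.692). It was -0.079 without shCtrl 1 and -0.10 without shCCT2 2.

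INSR, the insulin receptor, is a close relative of IGF1R. It had 26.1, 26.9 and 6.88 CPM in shCCT2 1, 2 and 3, against 28.7 and 30.5 CPM in shCtrl 1 and 2. The controls were level, the table A knockdown libraries were a little lower, and shCCT2 3 was 4.44-fold lower than shCtrl 2 (126 against 576 counts). The log2 changes were -0.14, -0.09 and -2.07. The counting interval included 0 for both table A libraries and ran from -2.44 to -1.87 in table B, on the ratio without the added 0.5 CPM. Its fitted value was -1.0 ± 0.48 (SE; edgeR adjusted p = 0.542; DESeq2 adjusted p = 0.428). It was -0.12 without shCtrl 2, -0.12 without shCCT2 3 and -2.12 without shCtrl 1, so the value was small wherever the table B pair did not enter.

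**Figure D2:**
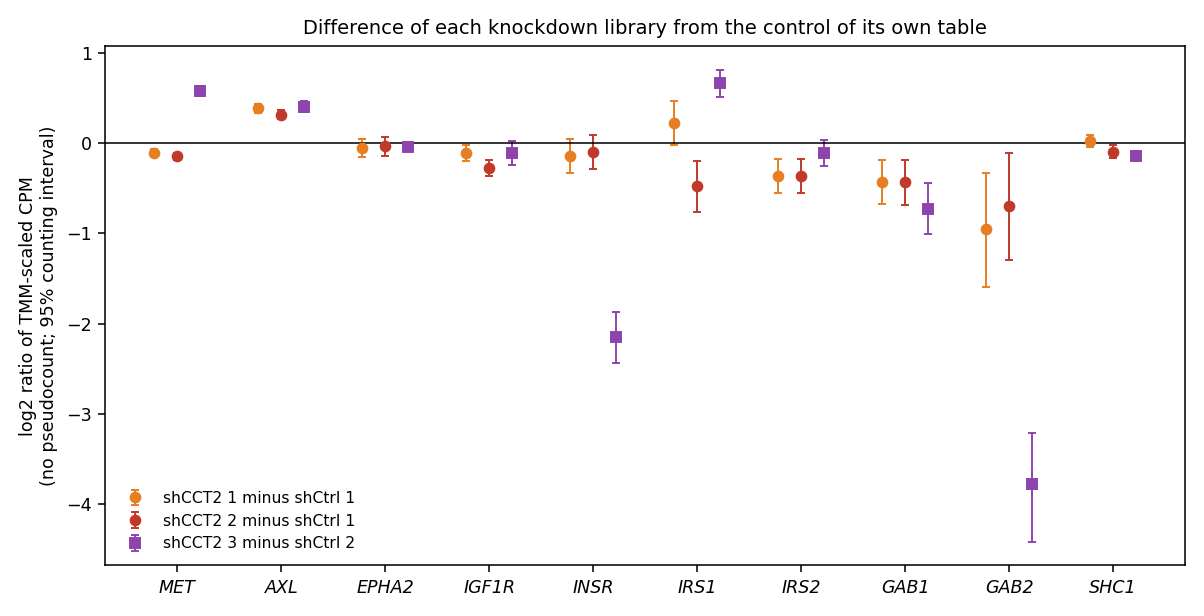
Log2 ratio of each shCCT2 library to the shCtrl library of its own table for the 10 genes, with 95% counting intervals and no pseudocount; both table A libraries share shCtrl 1. INSR at -2.15 and GAB2 at -3.78 in shCCT2 3 lie far below all other points, and the 3 AXL points lie above 0.

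Among the docking proteins, IRS1 had 17.6, 10.8 and 49.4 CPM in shCCT2 1, 2 and 3, against 15.05 and 31.2 CPM in shCtrl 1 and 2. Its knockdown libraries did not share a direction, with log2 changes of 0.22, -0.46 and 0.65. The table A pair, which shares its control, lay on opposite sides of 0, and the fit gave 0.24 ± 0.31 (SE; edgeR adjusted p = 0.738). It was 0.69 without shCtrl 1, 0.46 without shCCT2 2, 0.11 without shCCT2 1, -0.083 without shCtrl 2 and -0.083 without shCCT2 3.

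IRS2, the other main insulin receptor substrate, had 23.9, 23.9 and 40.1 CPM in shCCT2 1, 2 and 3, against 30.7 and 43.3 CPM in shCtrl 1 and 2. It was lower than its own control in each table, with log2 changes of -0.36, -0.35 and -0.11, the last with a counting interval that included 0. The fit gave -0.25 ± 0.20 (SE; edgeR adjusted p = 0.592). It was -0.081 without shCtrl 1.

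GAB1, the docking protein that MET recruits, had 14.1, 14.1 and 8.95 CPM in shCCT2 1, 2 and 3, against 19.0 and 14.8 CPM in shCtrl 1 and 2. The log2 changes were -0.42, -0.42 and -0.69, each with a counting interval below 0. The fitted change was -0.56 ± 0.25 (SE; edgeR adjusted p = 0.542; DESeq2 adjusted p = 0.511), and it ran from -0.69 to -0.43 with each library left out in turn. As for AXL, the values of this range are not independent of each other.

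GAB2, its relative, had 2.0, 2.39 and 1.42 CPM in shCCT2 1, 2 and 3, against 3.86 and 19.5 CPM in shCtrl 1 and 2. The 3 knockdown levels lay close together, while the controls were 5.05-fold apart. The counts behind them were 34, 40 and 26 in shCCT2 1, 2 and 3, against 67 and 368 in shCtrl 1 and 2. The log2 changes were -0.80, -0.60 and -3.38, and without the added 0.5 CPM the table B difference was -3.78 (counting interval -4.41 to -3.21), or 13.75-fold. Of all genes tested, 0.191% had a lower value in the table B pair. The fitted change was -2.14 ± 0.75 (SE; edgeR adjusted p = 0.542; DESeq2 adjusted p = 0.213). It was -0.81 without shCtrl 2, -0.81 without shCCT2 3 and -3.74 without shCtrl 1, and edgeR's or DESeq2's adjusted p lay between 0.0783 and 0.99996 across the alternatives.

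SHC1, the adaptor that links receptors to GRB2, had 210.7, 193.9 and 278.6 CPM in shCCT2 1, 2 and 3, against 206.9 and 306.8 CPM in shCtrl 1 and 2. The log2 changes were 0.03, -0.09 and -0.14, and the fitted change was -0.08 ± 0.18 (SE; edgeR adjusted p = 0.857). Leaving out shCtrl 2 gave -0.033, leaving out shCCT2 3 gave -0.032, and leaving out shCCT2 2 gave -0.048. SHC1 was the 1 member with estimated counts that were not whole numbers, which it had in all 5 libraries.

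INSR and GAB2 were the 2 members past 2-fold lower in the table B pair, beside 13.8% of all genes, and none was past 2-fold higher, beside 8.37%. In table A, none of the members was past 2-fold in both knockdown libraries, beside 0.251% of all genes lower and 0.145% higher. Their upstream windows are shown because they hold the letters that precede the start of the 2 genes with the largest table B differences. RefSeq on GRCh38.p14 gave windows for 9 of the 10 members, 12 windows in all, of which the 250 bases before the annotated start were read. Capitals mark GGGCGG on either strand, the GC box bound by SP1 and related factors. Copies that overlap run together. The INSR window is chr19:7294415-7294664 on the minus strand. GAB2 has a pair of annotated starts, at chr11:78417821-78418070 (start 1) and chr11:78341920-78342169 (start 2), both on the minus strand, and gene-level counts do not say which was used. All are printed 5′ to 3′.
INSR: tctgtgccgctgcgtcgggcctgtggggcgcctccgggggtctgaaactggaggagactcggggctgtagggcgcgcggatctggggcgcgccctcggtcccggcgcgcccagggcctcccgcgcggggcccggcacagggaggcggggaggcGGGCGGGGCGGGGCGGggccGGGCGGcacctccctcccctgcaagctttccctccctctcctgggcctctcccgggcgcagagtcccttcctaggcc
GAB2 start 1: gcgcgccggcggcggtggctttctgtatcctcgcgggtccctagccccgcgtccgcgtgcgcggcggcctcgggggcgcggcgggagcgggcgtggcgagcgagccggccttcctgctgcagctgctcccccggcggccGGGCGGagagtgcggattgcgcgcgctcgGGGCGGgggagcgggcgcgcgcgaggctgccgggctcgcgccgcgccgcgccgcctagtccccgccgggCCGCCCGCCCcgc
GAB2 start 2: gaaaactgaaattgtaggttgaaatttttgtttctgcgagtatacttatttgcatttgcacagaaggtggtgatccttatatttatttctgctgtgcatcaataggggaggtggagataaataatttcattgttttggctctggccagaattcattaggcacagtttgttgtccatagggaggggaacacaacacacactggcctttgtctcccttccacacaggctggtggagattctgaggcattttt

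The INSR window held 4 copies of the GC box and was 78.4% G or C, the GAB2 window of start 1 held 4 copies at 84.0%, and that of start 2 held none at 41.2%, beside a median of 58.0% over all 35116 windows. Of the 12 member windows, 9 held a GC box, as did 42.6% of all windows. Members with smaller table B differences held GC boxes too: the IRS2 window held 5, the IRS1 window 4, the IGF1R window 2 and the EPHA2 window 1. The forkhead motif GTAAACA, the E-box CACGTG and the TATA box TATAAA were found in none of the 12 windows, and in 2.98%, 6.34% and 10.7% of all windows. The AP-1 motif TGANTCA was found in 1 of the 12, upstream of SHC1, and in 6.57% of all windows. Each motif was searched on both strands, and a match is a description of letters only.

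The tested genes next to INSR and GAB2 were read as well. Because these members were picked for large table B differences, smaller values next to them were likely from the start. Whether a region was involved was not tested. Around INSR, 10 tested genes (5 on each side by start position) had a median log2 change of -0.56 in shCCT2 3. They ran from -1.65 to 1.74, against -2.07 for INSR itself. The 10 around GAB2 had a median of -0.41, from -2.55 to 1.10, against -3.38 for GAB2. The median over all genes tested was -0.02.

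In all, 6 members were below their own control in all 3 knockdown libraries (EPHA2, IGF1R, INSR, IRS2, GAB1 and GAB2), beside 21.4% of all genes. The pair of changes in table A shares shCtrl 1, so these are not 3 independent signs. The 6 were 3 of the 5 receptors and 3 of the 5 adaptors. Among them, GAB1 and GAB2 alone had counting intervals below 0 in all 3 libraries, and for EPHA2 all 3 included 0. With library totals in place of TMM scaling, 7 members were below their own control in all 3. The 1 added was SHC1, at -0.02 in shCCT2 1. The share of all genes was not counted on that scale, where the median fitted value over all genes was also lower (-0.081, against -0.016). The median change over the 10 members was -0.11 in shCCT2 1, -0.21 in shCCT2 2 and -0.11 in shCCT2 3, beside -0.001, -0.0003 and -0.02 over all genes. The median size of the change, regardless of sign, was 0.18, 0.30 and 0.49 for the members and 0.24, 0.14 and 0.51 for all genes.

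Whether the knockdown difference itself differed between the tables was tested as an interaction term, on 1 residual degree of freedom. No gene passed edgeR's quasi-likelihood test of that term (0 of 13123, or 0%), though 2255 genes (17.2%) had an unadjusted p under 0.05, INSR and GAB2 among them. The table B change minus the table A change was -2.03 ± 0.37 for INSR (SE; edgeR adjusted p = 0.132) and -2.96 ± 0.62 for GAB2 (adjusted p = 0.138). It was 0.71 ± 0.29 for MET (adjusted p = 0.295), and for EPHA2 it was 0.004 ± 0.29 (adjusted p = 0.996).

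The control libraries differed from each other by more than the fitted knockdown change for 8 of the 10 members, all but INSR and GAB1, beside 72.6% of all genes. For GAB2 the sizes were close, at 2.20 for the controls, taken on CPM plus 0.5, and -2.14 for the fit. The size of the difference shCtrl 2 minus shCtrl 1 had a median of 0.89 on the log2 scale over the 10 members, beside 0.62 over all genes, and this difference between 1 library and 1 other was not tested. EPHA2 stood 4.11-fold, IRS1 2.07-fold and GAB2 5.05-fold higher in shCtrl 2 (394.6, 31.2 and 19.5 CPM) than in shCtrl 1 (96.1, 15.05 and 3.86 CPM), where 17.3% of all genes were past 2-fold higher. MET and IGF1R were past 2-fold lower in shCtrl 2 (243.9 and 53.3 CPM) than in shCtrl 1 (664.6 and 130.2 CPM), where 12.4% of all genes were past it. INSR, with 30.5 CPM in shCtrl 2 and 28.7 CPM in shCtrl 1, had the smallest control difference of the 10 (0.09 on the log2 scale), and its counting interval included 0. Any difference between the tables in handling and one between the cells cannot be told apart. This control difference and the table B knockdown change share shCtrl 2.

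**Figure D3:**
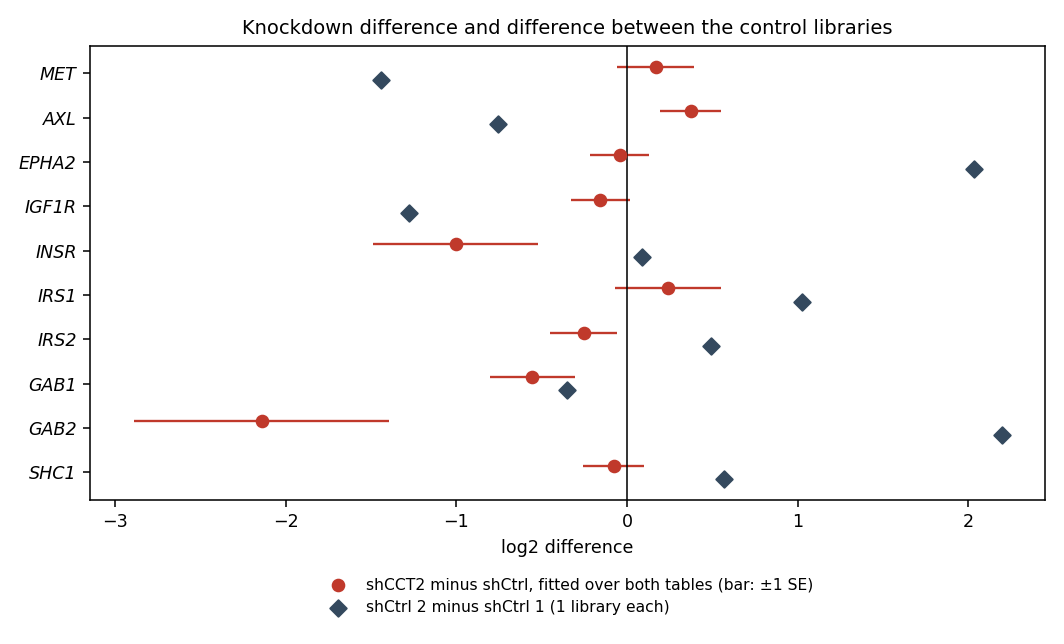
Fitted log2 change shCCT2 minus shCtrl with ±1 SE (red points) and the log2 difference shCtrl 2 minus shCtrl 1 (dark blue diamonds) for the 10 genes. The diamonds run from -1.44 for MET to 2.20 for GAB2, and the red points lie between -1.0 and 0.37 for all genes other than GAB2, at -2.14.

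Levels can be compared between genes only per length, so CPM was divided by the kilobases of coding-transcript exons in GENCODE v29, which may not be the authors' annotation. On that scale MET, AXL, EPHA2 and SHC1 formed a high group, with no library under 23.3 CPM per kilobase. The other members formed a low group, with no library above 10.6. In the shCCT2 libraries MET came first with 78.9 ± 21.1 CPM per kilobase (SD, n = 3), followed by AXL with 76.8 ± 19.7, SHC1 with 63.1 ± 12.4 and EPHA2 with 47.9 ± 42.3. In the shCtrl libraries SHC1 came first with 71.2 ± 19.6 (SD, n = 2), followed by MET with 67.9 ± 44.5, EPHA2 with 61.9 ± 53.2 and AXL with 55.0 ± 19.9. Neighbours in either order overlapped in range within this group, so their order is not settled.

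In the low group, IGF1R stood at 7.55 ± 3.09 CPM per kilobase in the shCCT2 libraries (SD, n = 3) and 7.50 ± 4.44 in the shCtrl libraries (SD, n = 2). IRS2 stood at 3.599 ± 1.153 (shCCT2) and 4.55 ± 1.10 (shCtrl), IRS1 at 2.67 ± 2.12 (shCCT2) and 2.38 ± 1.17 (shCtrl), INSR at 2.19 ± 1.25 (shCCT2) and 3.26 ± 0.14 (shCtrl), and GAB1 at 1.54 ± 0.37 (shCCT2) and 2.10 ± 0.37 (shCtrl). GAB2 had the lowest mean in both, with 0.312 ± 0.078 (shCCT2) and 1.88 ± 1.78 (shCtrl), and its shCCT2 range lay below that of every other member. In shCtrl 2, GAB2 stood at 3.14 and GAB1 at 1.83, so the place of GAB2 in the controls is not settled. IRS1 was above IRS2 per kilobase in shCCT2 3 alone, where IRS1 stood at 5.09 and IRS2 at 4.93, and in shCtrl 2 IRS1 stood at 3.21 and IRS2 at 5.32.

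The genes around the members were followed in 8 lists of 106 genes, of which 85 were tested, and none of these passed edgeR's or DESeq2's adjusted threshold. From each list, the genes named are among the 4 with the smallest edgeR p, and none of them passed (edgeR adjusted p = 0.542 each, other than FOXO3 at 0.940). The share of all genes fitted below 0, to be held beside the counts of each list, was 51.5%. Of 9 tested receptor kinases of the same families, 6 were fitted above 0 and 3 below (median 0.18). By library, the median of this list was -0.32 in shCCT2 1, -0.07 in shCCT2 2 and 0.63 in shCCT2 3. Of the 9, 0 were above their own control in all 3 knockdown libraries and 2 were below it, beside 20.2% and 21.4% of all genes. EPHB3, an ephrin-B receptor, had 3.59, 4.835 and 4.695 CPM in shCCT2 1, 2 and 3, against 7.50 and 19.7 CPM in shCtrl 1 and 2, a fitted change of -1.38 ± 0.41 (SE). MST1R, the RON receptor and closest relative of MET, had 25.5, 28.2 and 78.4 CPM in shCCT2 1, 2 and 3, against 26.6 and 20.04 CPM in shCtrl 1 and 2, so shCCT2 3 stood far above the other libraries. MERTK, a relative of AXL, had 6.89, 4.54 and 3.22 CPM in shCCT2 1, 2 and 3, against 6.34 and 17.2 CPM in shCtrl 1 and 2. Its log2 changes were 0.11, -0.44 and -2.25, so the table A pair lay on opposite sides of 0 and shCtrl 2 stood above the other libraries. Of 15 tested receptor kinases of other families, 3 were higher and 12 lower (median -0.30), FGFR4 among these at -1.02 ± 0.40 (SE). FGFR4 was low throughout, with 2.12, 1.91 and 3.55 CPM in shCCT2 1, 2 and 3, against 3.23 and 9.65 CPM in shCtrl 1 and 2. EGFR, the epidermal growth factor receptor, had 547.6, 361.6 and 491.2 CPM in shCCT2 1, 2 and 3, against 344.4 and 229.9 CPM in shCtrl 1 and 2. It was the 1 gene of that list above its own control in all 3 knockdown libraries (0.67, 0.07 and 1.09), with a fitted change of 0.69 ± 0.27 (SE). In the same list, 6 genes were below their own control in all 3, where the shares over all genes were 20.2% above and 21.4% below.

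Of 7 tested genes in the list of ligands for the member receptors and their relatives, 1 was fitted above 0 and 6 below, with a median of -0.95. PROS1, the protein S gene, whose product binds the AXL relatives TYRO3 and MERTK, had 2.71, 4.48 and 7.21 CPM in shCCT2 1, 2 and 3, against 6.92 and 20.8 CPM in shCtrl 1 and 2, a fitted change of -1.21 ± 0.36 (SE). EFNA1, an ephrin that binds EPHA2, had 54.9, 58.7 and 25.4 CPM in shCCT2 1, 2 and 3, against 74.0 and 33.7 CPM in shCtrl 1 and 2. It was lower than its control by a similar amount in each library (-0.43, -0.33 and -0.40). EFNA5 and EFNA3 had fitted changes of -0.95 ± 0.40 and -1.17 ± 0.53 (SE). Of 9 tested genes for ligand processing and binding, 2 were higher and 7 lower (median -0.28), and IGFBP2, which binds the insulin-like growth factors, had 1.53, 2.03 and 2.57 CPM in shCCT2 1, 2 and 3, against 4.04 and 23.9 CPM in shCtrl 1 and 2.

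Of 15 other tested adaptors, 6 were higher and 9 lower (median -0.08). FRS2, the docking protein of the FGF receptors, was higher than its control in each knockdown library, with 95.7, 77.7 and 36.0 CPM in shCCT2 1, 2 and 3, against 60.3 and 26.6 CPM in shCtrl 1 and 2 (fitted 0.49 ± 0.19, SE). Of 16 tested negative regulators, 3 were higher and 13 lower (median -0.34), among them LRIG1, an inhibitor of receptor kinases, at -0.90 ± 0.43, and SOCS2 at -0.46 ± 0.21 (SE). PTPN1, a phosphatase of the insulin receptor, was on the other side at 0.45 ± 0.22 (SE). The 10 genes of class I PI3K subunits, PDPK1 and the AKT kinases split 6 higher and 4 lower (median 0.03). PDPK1, the kinase that phosphorylates AKT at the membrane, had 75.2, 67.5 and 65.8 CPM in shCCT2 1, 2 and 3, against 56.8 and 51.1 CPM in shCtrl 1 and 2 (fitted 0.34 ± 0.18, SE). Of the 4 FOXO factors, which AKT holds inactive, 1 was higher and 3 lower (median -1.0). FOXO3, the most abundant, had 76.5, 69.5 and 101.8 CPM in shCCT2 1, 2 and 3, against 79.1 and 86.3 CPM in shCtrl 1 and 2 (fitted 0.04 ± 0.18, SE). FOXO1 was fitted at -0.79 ± 0.23 (SE). FOXO4 had 0.943, 1.79 and 5.405 CPM in shCCT2 1, 2 and 3, against 3.17 and 12.4 CPM in shCtrl 1 and 2. FOXO4 rests on 16 and 30 counts in shCCT2 1 and 2, and FOXO6 on 3 counts in shCCT2 3.

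**Figure D4:**
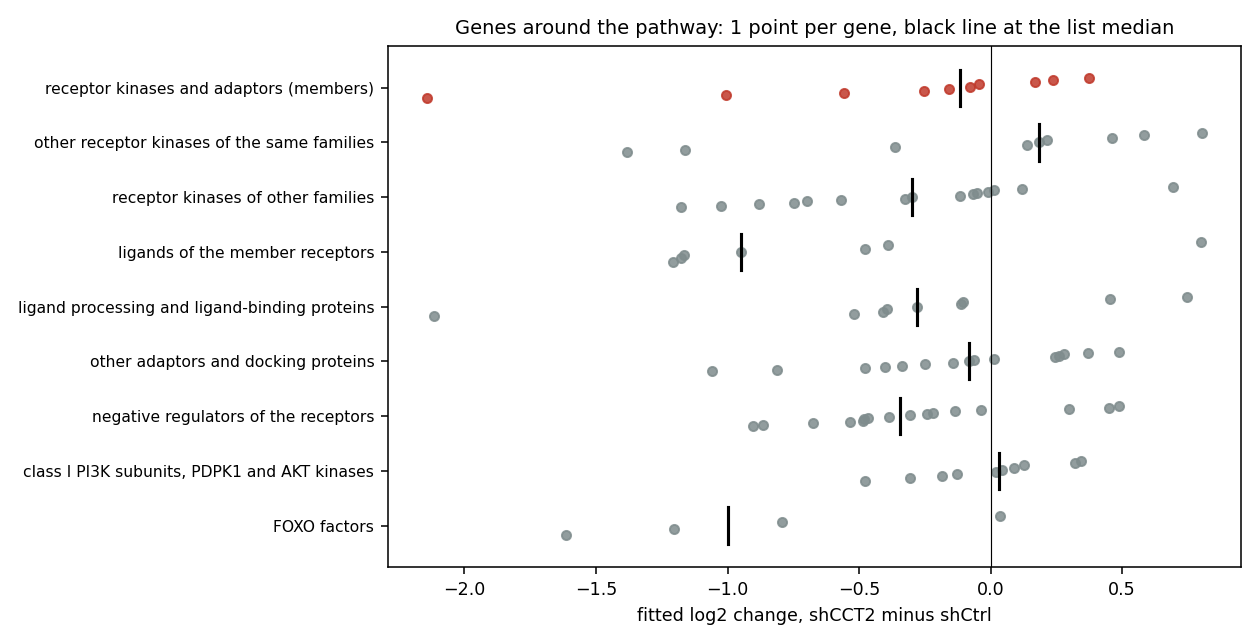
Fitted log2 change shCCT2 minus shCtrl of each tested gene (points) and the median (black line) for the 10 members, in red, and the 8 lists around them, in grey. The medians run from -1.0 for the FOXO factors to 0.18 for the related receptor kinases, and no point passed edgeR's adjusted threshold.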

How the data were processed

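RNA-seq was done on 5 libraries of SAS cells, held in tables A (3 libraries) and B (2 libraries). Per the labels' protocols, mRNA was selected with oligo(dT) beads from Trizol RNA, fragmented, and copied with random hexamers for an MGI instrument. The authors deposited estimated counts per gene (expected counts, 86.2% to 87.9% of them whole numbers) in 2 tables, and a signal file per library with coverage in windows along transcripts. Per the submitters' processing notes, STAR 1.5.1, HTSeq and mm10 were named, with no file or role. The identifiers are human and 98.9% of those shared matched RefSeq of GRCh38.p14, and the build of the counts and any use of strand were not given in those sources. Antisense and overlapping genes may therefore share reads.

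Expected counts were rounded, and 15187 genes in both tables were kept. Testing used the quasi-likelihood method of edgeR 4.0.16 (R 4.3.3), with TMM scaling, the filter on low counts by group, the table as a term and Benjamini-Hochberg adjustment over 13123 genes. It leaves 2 residual degrees of freedom. The SE is the fitted change divided by the square root of F. Log2 changes of single libraries are TMM-scaled CPM plus 0.5, knockdown minus the control of the same table. Counting intervals (95%, exact Clopper-Pearson on the pair of counts, no added CPM) cover counting error only. Over all genes the median fitted value was -0.016 after TMM scaling and -0.081 with library totals. DESeq2 1.42.0 was an alternative. The coverage signal gave the share of reads in the last 20% of windows, which averaged 14.4% in shCCT2 and 16.0% in shCtrl libraries (exact permutation test, two-sided, p = 0.4, where 3 against 2 libraries cannot reach 0.05). The members, lists and tests were chosen with earlier results of these data known. The named genes are the 10 members, CCT2 and, per list, up to 4 genes by the smallest p. Outside that rule, GAS6, IGF2, KIT and the markers CDH1, KDR, PTPRC and CD68 were named after their values were seen. A gene of the lists is not reported here.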

Additional observations from a re-analysis of the deposited data

Results flagged for a closer look

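MET was flagged because its knockdown libraries stood on opposite sides of their controls in the tables: the log2 change was 0.58 in shCCT2 3, against -0.11 and -0.15 in shCCT2 1 and 2. The difference between the tables was 0.71 ± 0.29 (SE) in edgeR's quasi-likelihood test of the interaction and did not pass (adjusted p = 0.295). Such an opposite pattern was shown by 22.6% of all genes tested.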

How the results depend on the processing

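No member passed under any of the 14 alternatives tried for the fit, one of which, table A alone, was added after seeing the data. Between 6 and 9 of the 10 members had a lower fitted value under them, against 7 in the main test. DESeq2's Wald test called 2 genes higher and 11 lower, against 0 and 0, and CCT2 passed there (log2 change -1.21, adjusted p = 3.90e-05). Leaving out 1 library gave 0 higher genes each time and 0 to 2 lower ones, the 2 without shCCT2 2. Some members changed sign. MET and IRS1 ran from -0.13 to 0.61 and from -0.083 to 0.69 with 1 library left out, and were -0.13 and -0.082 in table A alone. IGF1R was 0.011 with no table term. The replicate numbers do not pair the libraries, since number 2 falls in different tables (correlation of deviations 0.68 for number 1 and -0.60 for number 2). With 2 controls, the deviation of each is the mirror of the other, so -0.60 restates the 0.60 of shCCT2 2 with shCtrl 1. These correlations are thus no separate evidence on pairing. With the replicate block in place of the table term, 0 genes passed in either direction (unadjusted p under 0.05: 106 higher and 341 lower), IGF1R was 0.45 and IRS1 was -0.65. With library totals in place of TMM scaling, the median over the members' single-library changes was -0.17, against -0.11. GAB2 rests on at most 67 counts in each library other than shCtrl 2, which limits its precision.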

Other observations

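A pair of ligand genes was named after their values were seen. GAS6, the AXL ligand, had 65.9, 81.6 and 162.8 CPM in shCCT2 1, 2 and 3, against 69.5 and 45.1 CPM in shCtrl 1 and 2, so shCCT2 3 had the highest GAS6 level of the 5 libraries and its control the lowest. IGF2, a ligand of IGF1R and INSR, had 0.707, 0.119 and 7.59 CPM in shCCT2 1, 2 and 3, against 0.346 and 30.4 CPM in shCtrl 1 and 2, so it was measurable mainly in table B. Neither passed edgeR's quasi-likelihood test. KIT, another receptor kinase gene, was listed in table B alone, with 0 counts in shCCT2 3 and 14 in shCtrl 2.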
